A study of Trametes elegans with 15 samples.

Results

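Of the 949 genes in the deposited table of the white-rot fungus Trametes elegans, 53 stood high on wheat straw alone. A gene was taken where the widest gap between its 5 deposited levels, sorted by size, was at least 1 on the log2 scale and only wheat straw lay above that gap. The genes were thus chosen by their deposited straw levels, and their height over the other media is given here as a description with no test. By the same rule 28 genes were high only on cellulose, 18 only on pine, 12 only on aspen and 37 only on maltose.

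Strain BRFM 1663, whose sample titles carry the name Artolenzites elegans, was cultured in shaken flasks at 30 °C for 3 days. The labels list 15 mycelium samples in 5 media, 3 per medium. Wheat straw, microcrystalline cellulose (Avicel), ground pine and milled aspen were each given at 15 g/l beside maltose, and the control medium held maltose alone at 20 g/l. Beside straw, cellulose and pine the labels give 2.5 g/l of maltose, but the figure for aspen is illegible in them, so each solid medium except aspen is known to differ from the control in maltose as well as in the solid. All 5 media shared the same mineral salts, ammonium tartrate, thiamin and yeast extract. Nothing in the labels says that the samples of a medium were separate cultures, so p-values measure only the spread between these samples, which may be technical.

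White-rot fungi break down all the polymers of the plant cell wall, lignin included, with secreted hydrolases, oxidases and peroxidases. Wheat straw is grass tissue: its hemicellulose is mainly arabinoxylan, which carries ferulic acid esters that link it to lignin, and it holds more soluble material than wood. Pine is a softwood rich in mannan-type hemicellulose, aspen is a hardwood rich in glucuronoxylan, and Avicel is nearly pure crystalline cellulose. The table identifies genes by number only, with no name or function, so the genes are given by number and no role or sequence is given for any of them.

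Levels are normalised log2 read counts, 1 per medium as the authors deposited them. Whole reads of 14 libraries were recovered from the decimals of these values, 2 on straw and 3 on each other medium, and give the value in each library as log2(reads × factor + 1), where the factor is what 1 read was worth. The deposited straw values decoded as means of 2 libraries, so 1 of the 3 straw samples of the labels is not in them. Which sample this is, and why it was left out, is not given. The straw levels, and so the choice of genes, rest on the other 2. Recovered libraries are called a, b and c within a medium by the order of their factors and are not tied to sample numbers. Over the 764 genes recovered in all 14 libraries, libraries held 377927 to 1073454 reads, and this sum covers only a portion of a library, so the full depth is unknown. Gene lengths are not in the table, so levels are compared between media and not between genes. The samples were whole mycelium, so fewer hyphae with a transcript and less transcript per hypha cannot be told apart.

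Over the 53 genes the median deposited level was 10.51 on straw, against 7.39 on cellulose, 6.41 on pine, 7.86 on aspen and 6.30 on maltose. Straw exceeded cellulose by a median of 2.83, pine by 3.93, aspen by 3.06 and maltose by 3.82, where the medians over all 949 listed genes were 0.12, 0.21, 0.05 and 0.26. All 53 genes were higher on straw than on each other medium by at least 1, which the rule fixes. Over all listed genes 20.8% were so much higher on straw than on cellulose, 29.4% than on pine, 19.3% than on aspen and 32.2% than on maltose. The excess over maltose reached 4 or more in 23 of the 53 genes, and that over pine did in 26. It did so over aspen in 15 genes and over cellulose in 12.

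**Figure D1:**
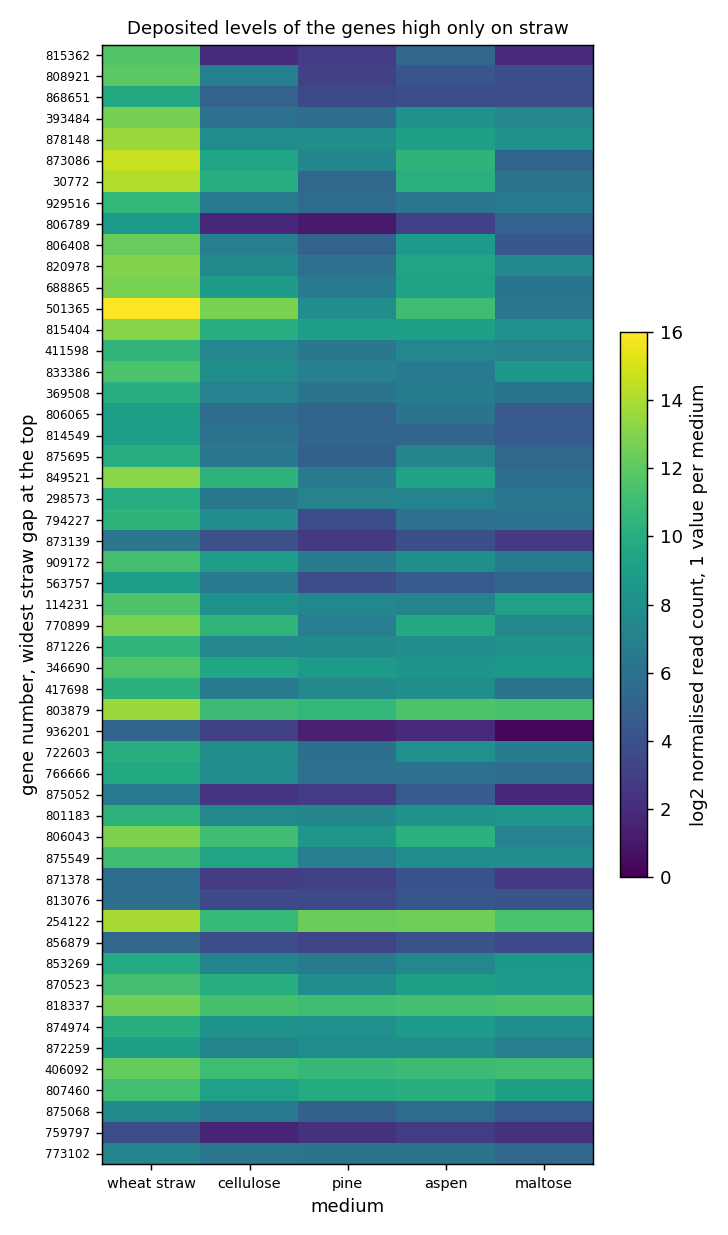
Deposited level (colour, log2 normalised read count, 1 value per medium) of the 53 genes high only on wheat straw, 1 row per gene, ordered by the gap between straw and the next medium. The straw column is the brightest in every row, the aspen and cellulose columns often lie next to it, and rows near the foot of the plot show small gaps.

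The gap between straw and the next medium had a median of 2.34, a 5.07-fold difference, and ran from 1.02 to 6.38. It was at least 2 in 34 genes, at least 3 in 15 and at least 4 in 7, while 13 genes lay under 1.5. Just inside the limit of 1 were genes 773102, 759797, 875068 and 807460, with gaps of 1.02, 1.08, 1.09 and 1.10. Just outside it, with straw alone on top, were 866219, 809761, 770276 and 404080, with gaps of 0.98, 0.95, 0.94 and 0.91. Another 32 genes exceeded their next medium on straw by at least 1 but had a wider gap lower down, and were not taken.

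In each of the 52 genes whose reads were recovered in every library, both straw libraries lay above all 12 other libraries. This held for 16.9% of the 764 genes recovered in all 14, and since the straw values chose the genes nothing is read from it. The lower straw library stood a median of 1.99 above the highest other library, and at least 1 above it in 43 of the 52 genes. The closest was 759797, the gene with the fewest straw reads (15 and 11), where this distance was 0.15. For 254122 the pine value matched several sets of reads, so it has no pine libraries.

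Gene 815362 had the widest gap of all. Its levels were 12.35 and 11.02 in the straw libraries, against 1.62, 2.86 and 1.66 on cellulose, 3.15, 2.66 and 2.54 on pine, 5.54, 5.01 and 5.36 on aspen, and 2.17, 1.47 and 2.25 on maltose. In reads this was 5210 and 1961 on straw, and 10 in all on cellulose, 17 on pine, 125 on aspen and 10 on maltose. The straw level was 83.4-fold above aspen on the scale with 1 added, where folds of genes with few reads come out too small. Aspen was thus the only other medium where this gene held more than 17 reads.

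Genes 808921 and 868651 had cellulose next, with 337 and 97 reads there in all, and few reads on pine, aspen and maltose. Gene 808921 had levels of 11.92 and 11.98 on straw, against 7.20, 6.63 and 6.81 on cellulose, 3.78, 3.25 and 2.20 on pine, 5.05, 4.38 and 3.29 on aspen, and 3.29, 3.42 and 4.61 on maltose. The straw libraries of 808921 almost coincided, while its pine, aspen and maltose libraries spread widely and overlapped one another. For 868651 the levels were 9.98 and 9.49 on straw, against 5.48, 5.14 and 4.63 on cellulose, 3.56, 3.55 and 3.70 on pine, 4.48, 3.25 and 3.67 on aspen, and 3.63, 3.74 and 4.0 on maltose. Here the 9 libraries of pine, aspen and maltose shared a single low range, from 3.25 to 4.48, below every cellulose library.

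Aspen lay next below straw in 393484, 878148, 873086 and 30772. Gene 393484 stood at 12.95 and 12.47 on straw, against 6.01, 6.01 and 6.0 on cellulose, 5.50, 5.82 and 5.78 on pine, 7.81, 8.50 and 8.20 on aspen, and 7.19, 7.63 and 7.33 on maltose. Cellulose and pine were its lowest media, under maltose in every library. Gene 878148 stood at 13.70 and 13.46 on straw, against 7.68, 7.93 and 7.79 on cellulose, 8.02, 7.93 and 7.70 on pine, 9.16, 9.14 and 9.07 on aspen, and 8.21, 8.32 and 8.19 on maltose. Its other 4 media lay within 1.32 of one another in the deposited values, 22.0-fold or more below straw.

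Gene 873086 reached 14.99 and 14.36 on straw, against 9.47, 9.51 and 9.32 on cellulose, 7.47, 7.22 and 7.34 on pine, 10.21, 10.45 and 10.51 on aspen, and 4.73, 5.28 and 5.53 on maltose. It was graded, with no overlap between any 2 media, and straw exceeded maltose 722-fold. Gene 30772 reached 14.66 and 13.71 on straw, against 9.90, 10.39 and 9.57 on cellulose, 5.95, 5.14 and 5.16 on pine, 9.74, 10.41 and 10.24 on aspen, and 6.17, 6.21 and 6.0 on maltose. Cellulose and aspen overlapped in 30772 and stood far above pine and maltose. In 929516, the eighth by gap, maltose came next: 10.68 and 10.54 on straw, against 6.74, 6.55 and 6.24 on cellulose, 5.59, 5.58 and 5.68 on pine, 6.72, 6.19 and 5.85 on aspen, and 6.34, 6.58 and 7.05 on maltose.

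**Figure D2:**
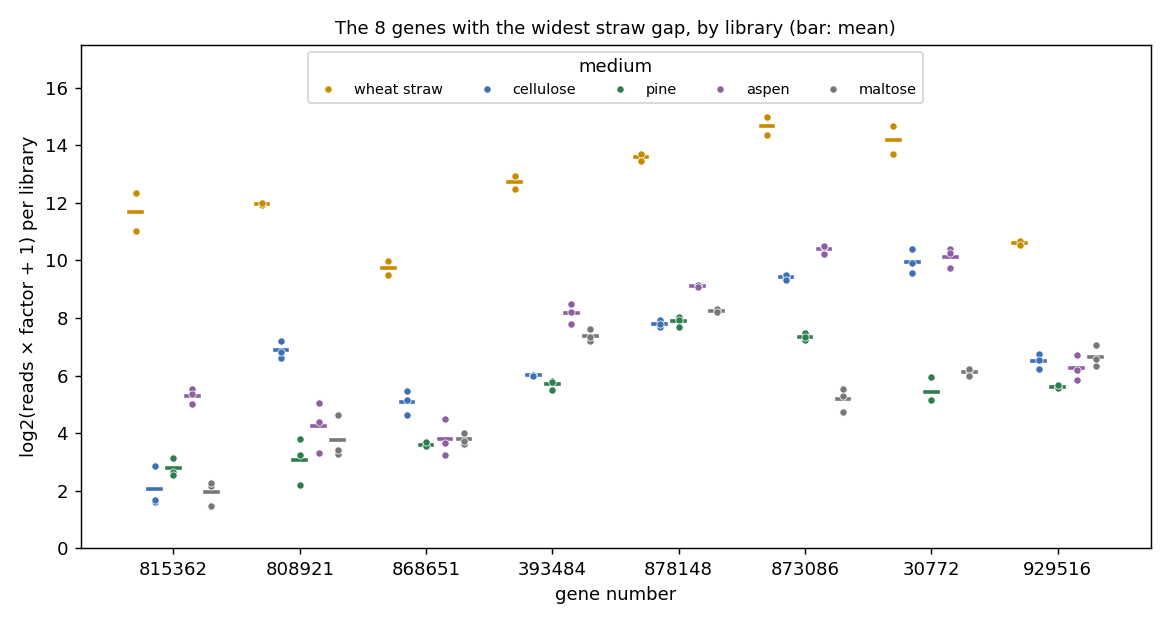
Level per library, as log2(reads × factor + 1), of the 8 genes with the widest straw gap, with 2 points for wheat straw and 3 for each other medium, and a bar at each mean. Straw points lie clear above all others in each gene, by 3.30 in 30772 and by 5.48 in 815362.

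The 5 highest straw levels, which also depend on gene length, were those of 501365, 873086, 30772, 254122 and 803879. Gene 501365 stood at 16.46 and 15.52 on straw, against 12.72, 12.89 and 12.74 on cellulose, 8.20, 7.66 and 7.67 on pine, 10.98, 11.19 and 10.94 on aspen, and 6.57, 6.26 and 6.23 on maltose. All 5 media were apart in this gene, and its straw libraries held 89865 and 44268 reads, against 79 to 107 reads in the maltose libraries. Gene 803879 stood at 13.78 and 13.43 on straw, against 10.88, 10.86 and 11.23 on cellulose, 10.44, 10.62 and 10.69 on pine, 11.50, 11.55 and 11.47 on aspen, and 11.27, 11.52 and 11.40 on maltose. It held at least 1372 reads in every library, with a range of 0.92 over the 4 media other than straw. For 254122 the deposited levels were 13.92 on straw, 10.72 on cellulose, 12.44 on pine, 12.46 on aspen and 11.49 on maltose, so that pine lay above both cellulose and maltose.

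The 53 genes together held a larger share of reads on straw than elsewhere. They were chosen by their straw levels, so this is a description. The 52 of them that are among the 764 genes recovered in all libraries, which leaves out 254122, took a share of the normalised reads of those 764 genes of 28.0% and 24.3% in the straw libraries, against 4.62% to 4.89% on cellulose, 2.33% to 2.63% on pine, 4.31% to 4.71% on aspen and 3.09% to 3.20% on maltose. The 764 genes also leave out genes of high level on a medium other than straw, whose reads were not recovered there. Straw values were searched at every level, so genes that were very high on straw alone stayed in. The shares over the 764 genes thus depend on this filter, and on every medium they exceed those over all 949 genes. From the deposited levels of all 949 genes, the shares of the 53 were 8.58% on straw, 1.04% on cellulose, 0.65% on pine, 1.21% on aspen and 0.73% on maltose.

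The 2 straw libraries did not agree equally well in these genes and in others. Library a was higher than library b in 43 of the 53 genes, 81.1%, and in 55.1% of the 948 genes recovered on straw. The median difference, library a minus library b, was 0.27 over the 53 genes and 0.03 over all. The difference was 0.5 or more in 12 of the 53, and library b was higher by as much only in 806408. Over all 948 genes, library a was higher by as much in 90 and library b in 35. With 1 library against 1 there is no test of this difference, and its part in the straw levels was not tested.

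Gene 815362 differed most between the straw libraries, by 1.33, followed by 766666 (1.09), 30772 (0.95), 501365 (0.94) and 806408 (-0.85). In 766666 the levels were 10.27 and 9.18 on straw, against 7.47, 8.24 and 7.64 on cellulose, 6.57, 6.26 and 5.30 on pine, 5.39, 6.23 and 6.51 on aspen, and 5.70, 6.09 and 5.31 on maltose. Its pine, aspen and maltose libraries overlapped. In 806408 they were 11.85 and 12.70 on straw, against 6.78, 6.85 and 7.0 on cellulose, 5.14, 4.68 and 5.34 on pine, 7.60, 9.29 and 9.04 on aspen, and 3.53, 4.68 and 5.04 on maltose. Without straw library a the rule finds 45 genes, 42 of them among the 53, and without library b it finds 58, of which 52 are among the 53. The median SD between straw libraries was 0.24 over the 53 genes and 0.13 over all 764, and in the other media it was 0.20 to 0.25 against 0.16 to 0.17.

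**Figure D3:**
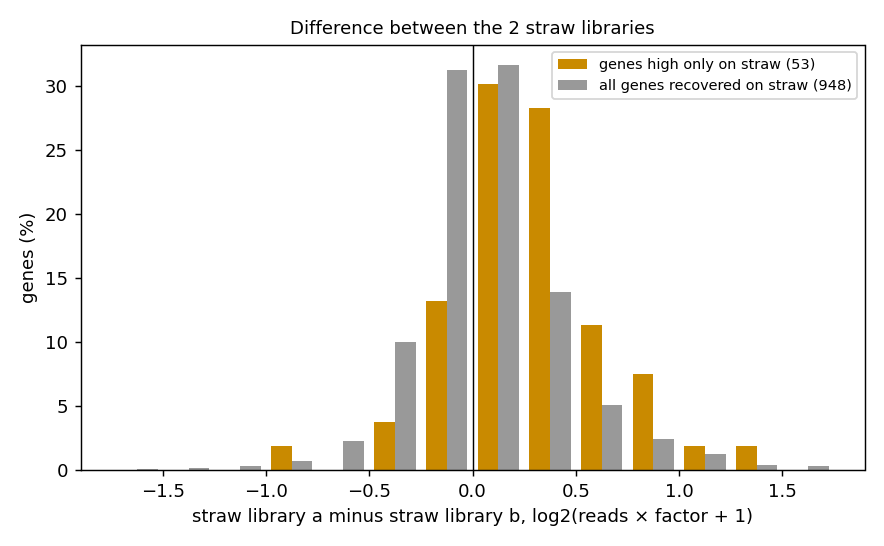
Share of genes (percent) by the difference between straw libraries a and b, in log2 units per bin of 0.25, for the 53 genes high only on straw and for all 948 genes recovered on straw. The genes high only on straw lie to the right, with a median of 0.27 against 0.03.

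The medium next below straw was aspen in 24 genes, cellulose in 20 and maltose in 9, and it was pine in 0. The lowest medium was maltose in 23 genes, pine in 22, cellulose in 5 and aspen in 3. Over all 949 listed genes the median deposited level was 8.91 on aspen and 8.86 on cellulose, against 8.11 on pine and 8.10 on maltose. The media are thus split alike over all genes, and no such counts were made over all genes, so nothing particular to the 53 is read from them. Over the 4 media other than straw, a gene's highest and lowest levels differed by a median of 1.97, against 1.49 over all listed genes. This range was under 1 in 11 genes and at least 3 in 13, so some genes were even outside straw and others graded. These 2 counts were not made over all genes. The rule keeps each gap among the other 4 media under the straw gap, so a small straw gap also limits this range. Maltose was next in 818337, 406092, 114231 and 833386, the 4 such genes with the highest straw levels. In 818337 and 406092 the deposited levels of the other 4 media lay within 0.28 and 0.43 of one another.

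**Figure D4:**
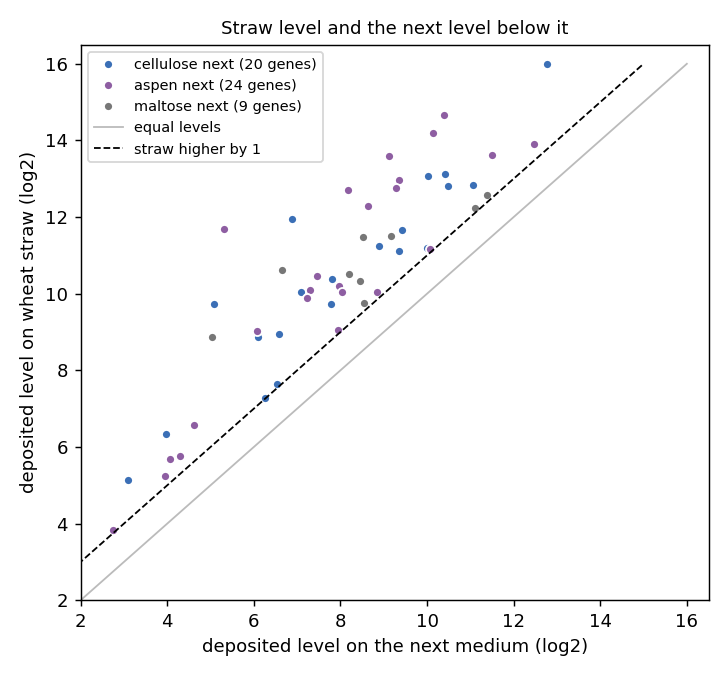
Deposited level on wheat straw (vertical axis, log2) against that on the next medium (horizontal axis, log2) for the 53 genes, coloured by which medium is next, with 24 genes for aspen, 20 for cellulose and 9 for maltose. The dashed line marks the gap limit of 1, and 815362 is the point farthest above it.

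How these genes behaved in the 4 other media was tested, because the rule does not set the direction of a difference between media other than straw. It does limit its size, since no gap among the other 4 media may be wider than the straw gap. A call needed a log2 difference of 1 or more and a limma adjusted p under 0.05, and the counts are set beside those over all genes tested. Of the 52 genes tested in all 6 comparisons, 40 were called in at least 1 and 12 in none, and over all 764 genes tested in all 6, 68.7% were called in at least 1. The comparisons against maltose share the maltose libraries, and each comparison shares a medium with 4 others.

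On cellulose, 24 of the 53 genes (45.3%) were higher than on maltose and 4 (7.55%) were lower, where 27.8% of all 799 genes tested were higher and 11.4% lower. The median difference was 0.85 over the 53 genes and 0.23 over all. Gene 501365 rose most, to 12.78 ± 0.09 on cellulose, against 6.36 ± 0.18 on maltose (SD, n = 3 each), an 85.8-fold rise (log2 6.42, SE 0.20, limma adjusted p = 3.63e-13). Its SD on cellulose rests on reads recovered at a level between 11 and 13, where a few sets may be wrong. Next were 849521, at 10.41 ± 0.15 on cellulose and 5.76 ± 0.31 on maltose, and 873086, at 9.43 ± 0.10 and 5.18 ± 0.41 in the same order, with rises of 4.66 (SE 0.20, limma adjusted p = 1.87e-11) and 4.26 (SE 0.19, 2.31e-11). In all 3 genes the cellulose libraries stood far above the maltose ones.

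The largest fall on cellulose was that of 806789, one of the genes with maltose next below straw. Its levels were 9.15 and 8.58 on straw, against 2.63, 1.03 and 1.66 on cellulose, 0.99, 2.40 and 0.00 on pine, 3.17, 3.63 and 2.56 on aspen, and 4.82, 4.58 and 5.69 on maltose. In reads it held 8 on cellulose, 5 on pine and 26 on aspen in all, against 111 on maltose. It fell by 3.26 on cellulose (SE 0.56, limma adjusted p = 9.6e-05), while 393484 fell by 1.38 (SE 0.18, 6.84e-06) and 853269 by 1.31 (SE 0.20, 3.36e-05). After each library was centred on its own median, which lowers every difference of cellulose from maltose by 0.59, 15 of the 53 genes were higher and 10 lower, beside 19.1% and 25.5% of all genes.

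Pine gave few rises among these genes. Of the 52 tested, 4 (7.69%) were higher on pine than on maltose and 11 (21.2%) lower, where 20.3% of all 819 genes tested were higher and 17.7% lower, and the median difference was -0.12 against 0.07 over all. The rises were led by 873086, at 7.34 ± 0.13 on pine and 5.18 ± 0.41 on maltose (SD, n = 3 each), a difference of 2.17 (SE 0.19, limma adjusted p = 7.8e-08). Gene 501365 rose by 1.49 (SE 0.20, 7.96e-06) and 806043 by 1.38 (SE 0.17, 4.44e-06).

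Among the falls on pine, 806789 fell by 3.90 (SE 0.56, limma adjusted p = 1.56e-05), a value that rests on 5 pine reads and was -2.50 with 5 in place of 1 added to the reads. Gene 794227 had levels of 10.40 and 10.39 on straw, against 8.35, 8.14 and 6.96 on cellulose, 3.78, 3.79 and 3.94 on pine, 6.97, 5.35 and 5.80 on aspen, and 5.77, 6.13 and 6.45 on maltose. Its pine libraries lay below all others, and it fell by 2.28 relative to maltose (SE 0.38, limma adjusted p = 6.89e-05). Gene 853269 fell by 2.00 on pine (SE 0.20, 3.93e-07), to 6.54 ± 0.54 against 8.55 ± 0.07 on maltose.

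On aspen, 21 of the 53 genes (39.6%) were higher than on maltose and 4 (7.55%) lower, where 29.4% of all 803 genes tested were higher and 13.2% lower. The median difference was 0.89, against 0.32 over all. Gene 873086 rose most, to 10.39 ± 0.16 on aspen, against 5.18 ± 0.41 on maltose (SD, n = 3 each), a 37.0-fold rise (log2 5.21, SE 0.19, limma adjusted p = 2.12e-12). Gene 501365 rose by 4.68 (SE 0.20, 1.08e-11), to 11.04 ± 0.13 against 6.36 ± 0.18. A rise of 4.22 was seen in 806408 (SE 0.42, limma adjusted p = 2.49e-07), whose aspen library a, at 7.60, stood below its other aspen libraries.

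Falls on aspen were seen in 114231, 806789 and 833386. Gene 114231 was at 7.18 ± 0.02 on aspen and at 9.16 ± 0.22 on maltose, a fall of 1.99 (SE 0.16, limma adjusted p = 2.04e-08). Gene 806789 fell by 1.91 (SE 0.56, 0.00647) and 833386 by 1.86 (SE 0.22, 2.06e-06). Centring each library on its own median lowers every difference of aspen from maltose by 0.62. With it 14 of the 53 genes were higher and 6 lower, beside 18.1% and 24.8% of all genes.

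Pine was set against the other wood and against cellulose directly. Among the 52 genes with a test, 0 stood higher on pine than on aspen and 23 (44.2%) were lower, where 6.85% of all 818 genes tested were higher and 27.1% lower. At an unadjusted limma p under 0.05, whatever the size of the difference, 1 gene was higher on pine than on aspen. The median difference was -0.91, against -0.40 over all. Gene 30772 was lowest on pine relative to aspen, at 5.42 ± 0.46 on pine and 10.13 ± 0.35 on aspen (SD, n = 3 each), 26.3-fold lower (log2 -4.71, SE 0.27, limma adjusted p = 1.19e-09). Gene 806408 was lower too (log2 -3.59, SE 0.42, 2.25e-06), and so was 820978 (-3.41, SE 0.23, 4.92e-09).

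Gene 820978 had levels of 13.21 and 12.75 on straw, against 7.57, 8.20 and 7.01 on cellulose, 6.20, 5.87 and 5.78 on pine, 9.36, 9.46 and 9.27 on aspen, and 7.46, 7.43 and 7.50 on maltose. Cellulose and maltose overlapped in it, with aspen above both and pine below. Centring on the library medians raises every difference of pine from aspen by 0.55. Then 16 of the 52 genes were lower on pine and 0 higher, beside 16% of all genes lower and 18.3% higher.

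Against cellulose, again 0 of the 52 genes were higher on pine and 23 (44.2%) were lower, where 12.9% of all 798 genes tested were higher and 26.8% lower. At an unadjusted limma p under 0.05, whatever the size of the difference, 5 genes were higher on pine than on cellulose. The median difference was -0.90 over these genes and -0.14 over all. The gene without a test, 254122, goes the other way, with deposited levels of 12.44 on pine and 10.72 on cellulose. Gene 501365 stood at 7.85 ± 0.31 on pine and at 12.78 ± 0.09 on cellulose (SD, n = 3 each), 30.6-fold lower (log2 -4.93, SE 0.20, limma adjusted p = 8.75e-12). Gene 30772 was also lower on pine (log2 -4.54, SE 0.27, 8.33e-10), as was 794227 (-3.98, SE 0.38, 1.68e-07). After centring on the library medians, which raises every difference of pine from cellulose by 0.52, 18 of these genes were lower and 4 higher, beside 19.9% and 26.2% of all genes.

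Aspen and cellulose divided the genes more evenly. Aspen was higher than cellulose in 9 of the 53 genes (17%) and lower in 12 (22.6%), close to the 15.1% higher and 15.7% lower among all 796 genes tested. Gene 815362 was at 5.30 ± 0.27 on aspen and at 2.05 ± 0.70 on cellulose (SD, n = 3 each), a difference of 3.26 (SE 0.40, limma adjusted p = 4.24e-06). Gene 393484 was higher on aspen by 2.16 (SE 0.18, 8.92e-08), as was 875052 by 2.15 (SE 0.55, 0.00289), which held 80 reads on aspen and 17 on cellulose. Gene 808921 was lower on aspen (log2 -2.64, SE 0.46, limma adjusted p = 0.000127), at 4.24 ± 0.89 against 6.88 ± 0.29 on cellulose. Genes 563757 (-1.99, SE 0.24, 3.57e-06) and 794227 (-1.77, SE 0.38, 0.000715) were lower on aspen as well.

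**Figure D5:**
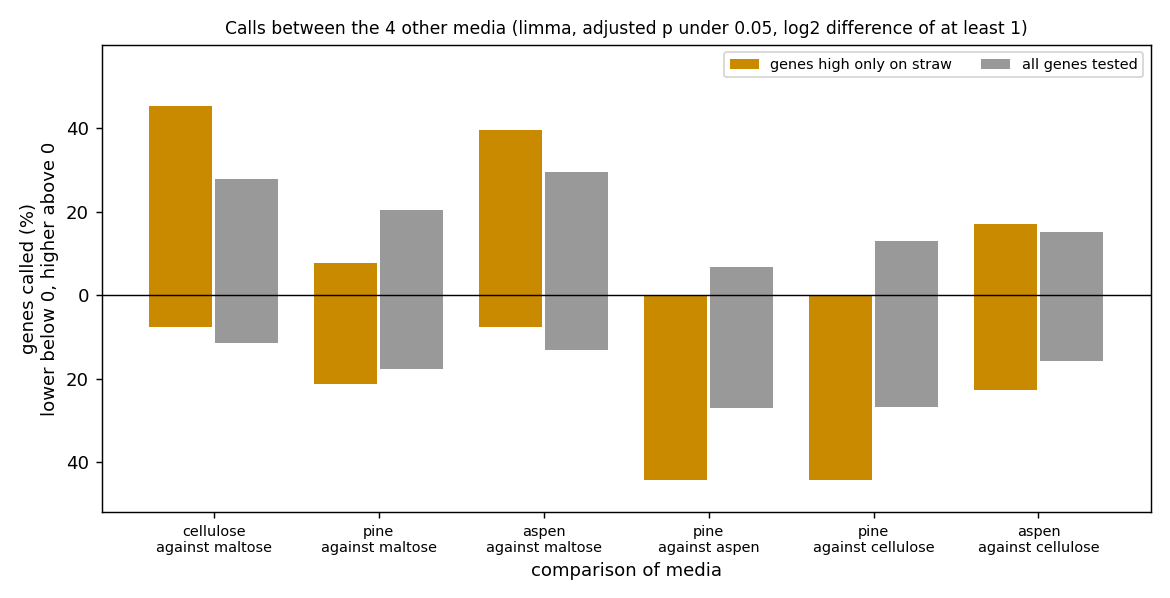
Share of genes (percent) called higher, above 0, or lower, below 0, in the 6 comparisons between the media other than straw, for the genes high only on straw and for all genes tested. Of the 52 genes high only on straw that were tested on pine, 0 were called higher and 44.2% lower on pine in both direct comparisons of pine. The other, 254122, had no test, and its deposited levels were 12.44 on pine, 12.46 on aspen and 10.72 on cellulose.

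The 12 genes called in none of the 6 comparisons included both low and high levels. Beside 803879, 818337 and 406092, described above, they were 298573, 369508, 759797, 773102, 807460, 813076, 856879, 871226 and 874974. Their levels in the 4 media other than straw spanned 0.28 in 818337 to 1.07 in 759797. Chosen after its values were seen, 369508 shows the pattern at a wide straw gap, at 10.05 on straw, against 7.08 on cellulose, 6.18 on pine, 6.77 on aspen and 6.23 on maltose in the deposited values. Having no call does not mean having no difference, since a call needs a log2 difference of 1 or more. In 369508 cellulose exceeded maltose by 0.85 (limma adjusted p = 0.000163), and pine differed from cellulose by -0.90 (limma adjusted p = 9.41e-05).

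The median pattern of the 53 genes, with each gene's 5 levels centred on their mean, was 2.79 on straw, -0.18 on cellulose, -1.24 on pine, -0.11 on aspen and -0.97 on maltose. By root mean square distance over the 5 media, the genes outside the 53 nearest to this pattern were 571826 (0.65), 496295 (0.66) and 814339 (0.70), where the 53 genes themselves lay at 0.19 to 2.36 with a median of 0.80. In deposited levels, 571826 stood at 9.03 on straw, 7.41 on cellulose, 5.71 on pine, 7.94 on aspen and 5.66 on maltose. Gene 496295 stood at 11.52, 9.02, 7.46, 10.10 and 7.30 in the same order of media. Both have straw on top by more than 1, with a wider gap below cellulose. Gene 814339 stood at 10.35 on straw, 9.43 on cellulose, 7.98 on pine, 8.43 on aspen and 7.89 on maltose.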

How the data were processed

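The deposited table holds 949 genes with 5 columns of normalised log2 read counts, 1 per medium, per the file headers. TopHat2, HTSeq and DESeq 1.5 appear in the submitters' processing notes, with no role or order. None of the genome build, the annotation, the choice of genes, the strand setting or the pseudocount is given in the sources used here, so overlapping genes and near-identical copies could not be examined. Per the labels' protocols, the libraries were made from poly A RNA and read from both ends on an Illumina instrument.

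A deposited value was read as the mean over libraries of log2(reads × factor + 1), with whole reads and a factor per library. The factors were searched on the lowest values of a column and refined on its low values. On straw, 20 of the 20 lowest values decoded as 2 libraries and 0 as 3, while on each other medium 20 decoded as 3 libraries and 0 as 2. From level 7, only sets whose libraries each lay within 6-fold of their geometric mean were searched, or within 3-fold from level 11 with 3 libraries. A set of reads was accepted within 4e-14 of the value on the natural log scale, or 2e-13 from level 10. Of the 4745 deposited values 4316 gave exactly 1 set, 89 gave several, 7 gave none and 333, at 13 or more with 3 libraries, were not searched. Below level 9 all 2564 values decoded, and 0 of as many decoys shifted by 1e-06 did. From level 11 to 13, 73 of 682 decoys gave a set, so a few sets there may be wrong. Of the 265 values of the 53 genes, 264 gave 1 set, 13 of them at these levels in media with 3 libraries. Chi-square tests of pairs of libraries of a medium gave 95.6 per degree of freedom for the straw pair, over 948 genes. Pairs of the other media gave 3.67 to 24.9, over 831 to 851 genes without values at 13 or more. All were beyond sampling noise, so none was counted as a duplicate.

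All 14 libraries entered one limma model (version 3.58.1, R 4.3.3) of log2(reads × factor + 1), with a mean per medium and an intensity trend. Its tests are two-sided, with Benjamini-Hochberg adjustment over all genes tested in a comparison. Each SE pools the spread over the media. On this scale the differences of genes with few reads come out too small. Read recovery and limma were tested on simulated data. For media with 3 libraries, recovery was tested only under level 11, so not at the levels where a few sets may be wrong. The genes, lists and tests were chosen with earlier results of these data known.

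Genes were named by a rule: the 8 widest gaps, the 5 highest straw levels, 4 genes on each side of the gap limit, the 3 largest rises and the 3 largest falls called per comparison, the 5 largest differences between straw libraries, 4 genes with maltose next, and the 3 genes outside the 53 most like them.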

Additional observations from a re-analysis of the deposited data

How the results depend on the processing

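With a gap limit of 2 in place of 1 the rule finds 34 genes, and with a limit of 1.5 it finds 40. After each column was centred on its own median it finds 41 genes, 38 of them among the 53, and after centring on the median difference from the gene means it finds 50, of which 49 are among the 53. Leaving out each library in turn gave 45 to 58 genes. Under centring on the column medians, the median excess of straw was 2.48 over cellulose, 2.84 over pine, 2.76 over aspen and 2.72 over maltose. Leaving out each library in turn moved these medians to 2.57 to 3.00 over cellulose, 3.91 to 4.17 over pine, 2.91 to 3.21 over aspen and 3.55 to 3.87 over maltose. The number of genes called in each of the 6 comparisons, higher and lower together, stayed within 1.5 times its value in 114 of the 114 alternatives run. The split by direction moved more under centring on the library medians. Cellulose against maltose went from 24 higher and 4 lower to 15 and 10. Aspen against maltose went from 21 and 4 to 14 and 6, and pine against cellulose from 0 and 23 to 4 and 18. Pine against maltose stayed at 4 and 11. Leaving out each library in turn gave 26 to 29 calls for cellulose against maltose, 14 to 17 for pine against maltose, 24 to 26 for aspen against maltose, 21 to 25 for pine against aspen, 22 to 24 for pine against cellulose and 19 to 24 for aspen against cellulose. All 30 results named per gene and comparison kept their call and direction under every alternative run for them. No paired analysis was possible because the recovered libraries carry no replicate number. The straw levels rest on 2 libraries, and total depth is unknown.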

Other observations

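A few genes held much of the straw signal of the 53. The 3 genes with the highest straw levels, 501365, 873086 and 30772, held 46.8% of the reads of the 53 genes in straw library a and 36.2% in straw library b. Gene 501365 alone held 28.4% and 20.8% of them. All 3 were higher in library a, by 0.94, 0.62 and 0.95 on the log2 scale.

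Gene 936201, chosen after its values were seen, had the fewest reads on maltose among the 53, 1 over the 3 maltose libraries. Its straw libraries held 34 and 32 reads, against 16, 7 and 3 on cellulose, 2, 2 and 1 on pine, and 3, 4 and 2 on aspen. Its deposited levels were 5.13 on straw, 3.09 on cellulose, 1.45 on pine, 1.90 on aspen and 0.30 on maltose.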
